A study of Bos taurus with 12 samples.

Results

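The abundance profile of cumulus cells from GV0 oocytes was read from the Cy3 channel of 12 bovine 2-colour microarrays. All 12 Cy3 channels, of 24 channels in the series, carried GV0 RNA, and all 43794 probes and 15216 named genes of the array were measured in them. The other 12 channels carried Cy5-labelled RNA of cumulus cells from GV1, GV2 or GV3 oocytes, 4 channels per stage. GV0 to GV3 name chromatin configurations of the germinal vesicle, the nucleus of the immature oocyte, which was stained after its cumulus cells had been removed. Ovaries came from a slaughterhouse, no hormone or drug treatment is given in the labels, and the age and breed of the animals are not given in the sources used here. Per the labels, cells of 10 complexes of 1 stage were pooled before extraction, and the RNA was amplified in 2 rounds. The arrays lay on 3 slides with 4 areas each, 4 arrays to a slide. Over probes, Cy3 signals correlated with r of 0.991 to 0.997 where the area number was shared and of 0.935 to 0.975 where it was not. Arrays with a common area number were taken as repeats of a single GV0 pool, which gives 4 pools, and each value below is a mean over pools, each first averaged over its 3 slides. Separate animals are not stated for the pools, so p-values and SDs measure the spread between these samples, which may be technical in part. Position on the slide and pool cannot be told apart.

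Cumulus cells are the granulosa-derived cells that enclose the oocyte. They supply it with glycolytic products, amino acids and sterols and are coupled to it by gap junctions. They respond to follicle-stimulating hormone (FSH) and to factors the oocyte secretes. After the ovulatory surge they make a hyaluronan-rich matrix, a step called expansion. Inhibins and activins, dimers built from an alpha and beta subunits, are classic products of this lineage. In the GV0 configuration chromatin is diffuse, and in the later configurations it is progressively condensed.

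Signals are given as scaled log2 Cy3 intensity, with each array brought to 1 common median over probes. The floor was the negative control level of 7.75, the signal of 153 control spots that carry a sequence with no intended target. Values below the floor were set to it, so an SD printed for a gene at the floor is the spread of that level between pools. A probe was called above the negative controls in a pool where it exceeded their mean plus 2 SD on at least 2 of 3 slides. A named gene was represented by its brightest probe, and its percentile is its rank among the named genes. Signals of different probes depend on the probe as well as on the transcript, so these are ranks of signal and not of transcript number. Among 2563 genes with at least 2 probes above the controls, the pooled SD between probes of the same gene was 1.39 on the log2 scale, against an SD of 1.68 over all genes above the controls. A further 995 genes had 1 probe above in all 4 pools and another above in none. Other probes of a gene are given below for some of the named genes only. In RNA of pooled cells, fewer cells of a type and less RNA per cell cannot be told apart.

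Most of the array gave signal in GV0 cumulus cells. Of 15216 named genes, 11380 (74.8%) were above the negative controls in all 4 pools, 2218 in some pools and 1618 (10.6%) in none. Over all probes, including 22004 without a gene symbol, 28136 (64.2%) were above in all 4 pools and 7599 (17.4%) in none. This call includes very dim probes, because the median probe lay between 252 and 346 intensity units on an array and the negative controls between 186 and 262. A stricter class, chosen after the data were seen, takes genes with a mean at least 2-fold (1 log2 unit) above the negative control level, and it held 6348 genes (41.7%). Signals at least 32-fold above that level were found for 777 genes (5.11%). The brightest 10% of probes held 81.6% of the summed signal above the negative control level, and the brightest 1% held 32.7%.

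**Figure D1:**
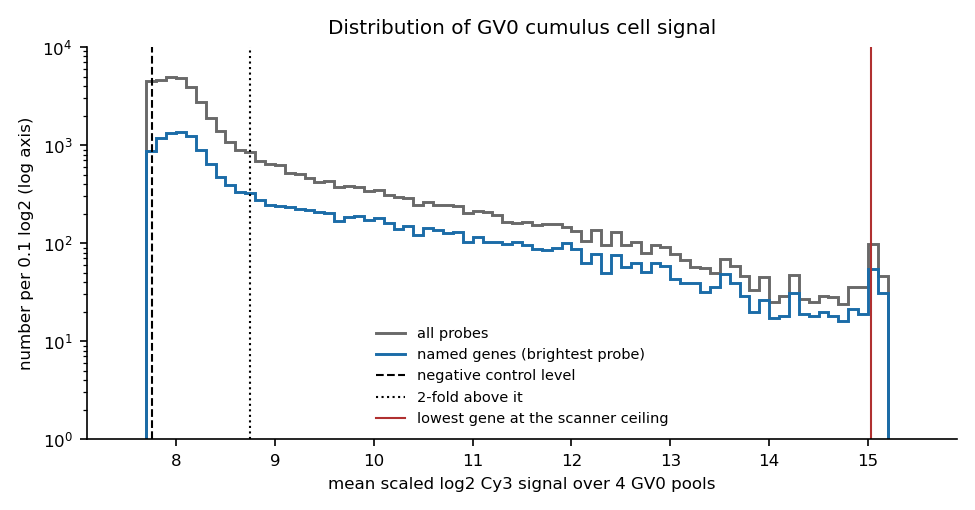
Number of probes (grey) and named genes (blue) per 0.1 log2 unit of mean signal over the 4 GV0 pools, on a logarithmic vertical axis. The dashed line marks the negative control level of 7.75 and the dotted line 2-fold above it. The red line marks the lowest of 61 genes at the inferred scanner ceiling, beside a second, small peak at the bright end.

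The bright end of the profile is read without an order. On every array, probe spots piled up just below the highest intensity seen, 36276 to 39193 units depending on the array. The median array had 96 probes between 34000 and 36000 units and 23 between 28000 and 30000. Probes that reached 30000 units on all 12 arrays represented 61 named genes, a class set after the data were seen, with mean signals between 15.03 and 15.15 and a median SD between pools of 0.16. Of these 61 genes, 23 were cytosolic ribosomal proteins and 5 were translation factors. Another 20 are pseudogenes in the RefSeq gene table, which may share signal with the genes they resemble. Rank and fold differences inside this group are not read, and the differences of these genes from dimmer ones are lower bounds.

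Protein synthesis led the profile. The 25 brightest named genes all lay between 15.11 and 15.15, and 23 of them were at the ceiling. They comprised 9 ribosomal proteins (RPS2, RPS3, RPS6, RPS7, RPS15, RPS28, RPL9, RPL37 and RPL37A), 11 genes with a LOC name, 10 of the 25 being annotated as pseudogenes, and 5 others. These were EEF1D, a subunit of the factor that recharges elongation factor 1, ATP5MC1, a ring subunit of mitochondrial ATP synthase, the alpha-tubulin TUBA1A, the prefoldin subunit PFDN5, and SERF2. RPS2, for example, read 15.06, 15.25, 15.28 and 14.98 in pools 1 to 4 (mean 15.14 ± 0.15, SD, n = 4).

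Of 69 cytosolic ribosomal proteins, 68 were above the controls in all 4 pools and 66 ranked in the brightest 10% of named genes, with a median percentile of 99.4. The 2 dimmest were FAU, a ubiquitin-like fusion that releases a ribosomal protein, at 9.07 ± 0.19, and RPL3L, a paralogue known from striated muscle, at 8.06 ± 0.33 and above in 2 pools only. All 34 translation factors were above the controls in the 4 pools (median percentile 95.6), from EEF1D, TPT1 and EEF1A1 at the ceiling to the cap-binding protein EIF4E at 10.37 ± 0.42 and EIF5B at 9.09 ± 0.20. Mitochondrial ribosomal proteins were dimmer as a group, with 73 of 76 above in all pools and a median percentile of 79.2, and aminoacyl-tRNA synthetases had a median of 67.0 with 26 of 26 above.

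Energy metabolism was also bright. Complexes III to V of the respiratory chain had 37 of 38 subunits above in all pools and a median percentile of 96.1, and complex I had 37 of 37 and a median of 91.2. The exception in complexes III to V was COX6A2, the heart and muscle isoform of a cytochrome oxidase subunit, at 7.79 ± 0.03 and above in no pool. The ubiquitous isoform COX6A1, looked up after its value was seen, was at 14.75 ± 0.29 on its brightest probe. Of the tricarboxylic acid cycle enzymes, 18 of 19 were above (median percentile 91.5), led by SDHB at 14.50 ± 0.14 and MDH1 at 14.12 ± 0.38. IDH2, the mitochondrial NADP-dependent isocitrate dehydrogenase, was the dimmest at 8.18 ± 0.29 and was above in 3 pools.

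Glycolysis and glucose handling followed, with 22 of 23 genes above the controls in all 4 pools and a median percentile of 90.6. The brightest were the triose-phosphate isomerase TPI1 (14.97 ± 0.30) and the lactate dehydrogenase subunits LDHA and LDHB, which turn pyruvate into lactate and back. LDHA read 14.99, 14.83, 15.31 and 14.41 in pools 1 to 4, and LDHB read 14.82, 14.65, 15.12 and 14.53. Both were brightest in pool 3 and dimmest in pool 4. At the other end were the insulin-responsive glucose carrier SLC2A4, at 8.31 ± 0.40, and the monocarboxylate carrier SLC16A7, at 7.76 ± 0.01 and above in no pool. Antioxidant genes had 30 of 30 above (median percentile 91.7). The brightest were the thioredoxin reductase TXNRD1 at 14.60 ± 0.37 and the peroxiredoxins PRDX4 at 14.51 ± 0.34 and PRDX6 at 14.46 ± 0.19. A second TXNRD1 probe read 7.96 and was above in 3 pools. The proteasome had 37 of 38 subunits above, with a median percentile of 88.5.

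**Figure D2:**
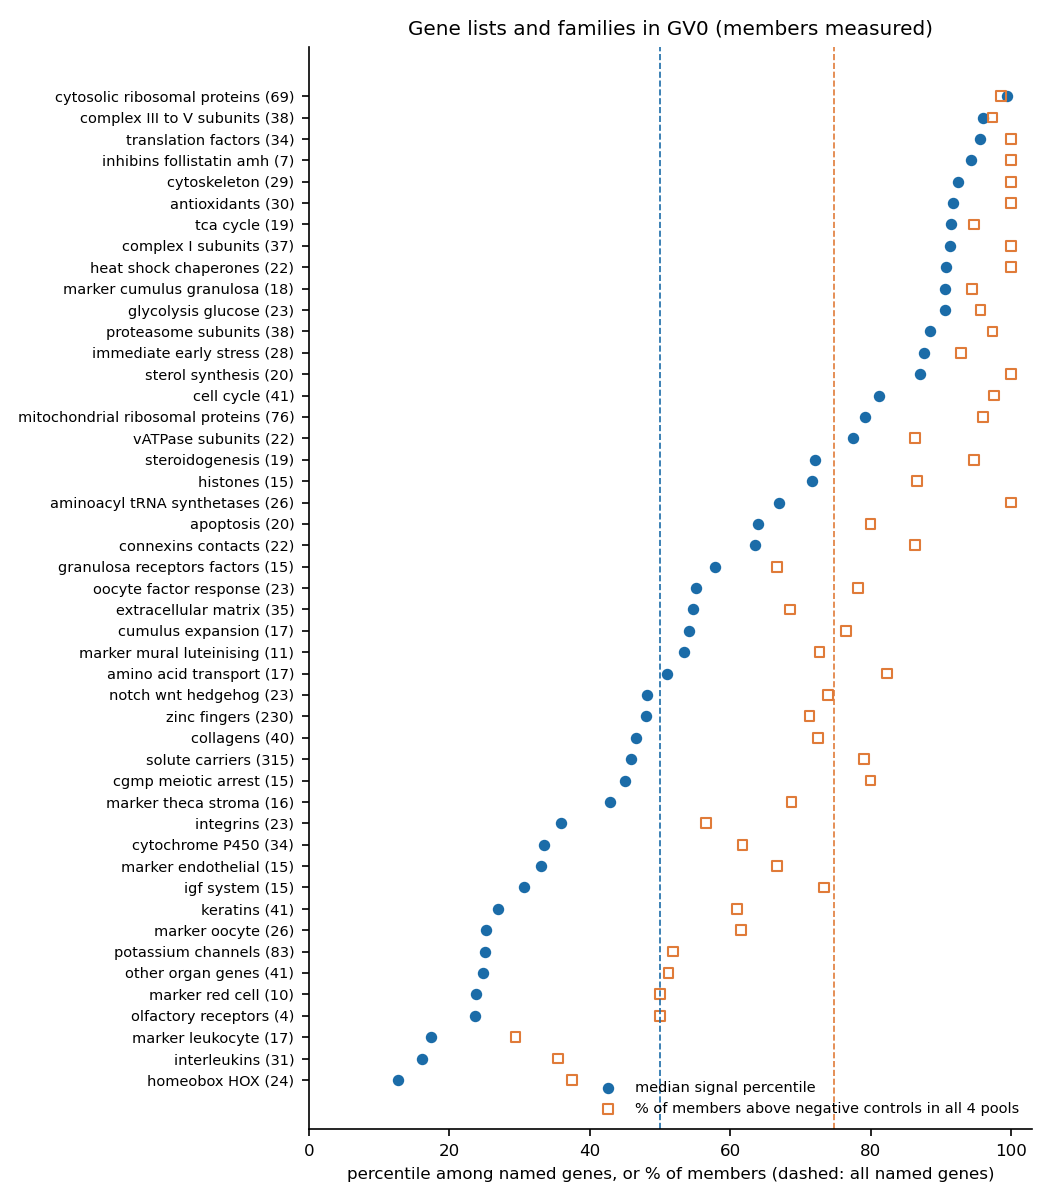
Median signal percentile of the measured members (filled circles) and percentage of members above the negative controls in all 4 pools (open squares) for 29 gene lists and 18 families, with the number of members in parentheses. Dashed lines mark the values over all named genes, 50 and 74.8, and the lists run from HOX genes at 12.6 to cytosolic ribosomal proteins at a median percentile of 99.4.

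The label of the cells was checked against markers of cumulus and granulosa cells, and 17 of 18 were above the controls in all 4 pools, with a median percentile of 90.6. The list takes cumulus and granulosa cells together and does not separate them. SERPINE2, a secreted inhibitor of plasminogen activators, read 14.85, 15.19, 15.29 and 14.20 in pools 1 to 4 (mean 14.88 ± 0.49). INHA, the inhibin alpha subunit, read 13.93, 14.56, 15.18 and 13.87 (14.39 ± 0.62). INHBA, the beta A subunit of inhibin and activin, read 14.43, 14.37, 15.30 and 14.38 (14.62 ± 0.45). All 3 were brightest in pool 3, at values within the range of the ceiling genes.

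GJA1, the connexin 43 of cumulus gap junctions, read 13.71, 13.87, 14.20 and 13.45 in pools 1 to 4 (13.81 ± 0.31). Its second probe gave 9.93 ± 0.21. GATM, an enzyme of creatine synthesis, was at 12.80 ± 0.30, and the orphan nuclear receptor NR5A2 at 12.40 ± 0.34. AMH, anti-Müllerian hormone, read 11.52, 12.39, 12.72 and 11.51 (12.03 ± 0.62), so its pools fell into a lower pair, 1 and 4, and a higher pair. HSD17B1, which converts oestrone to oestradiol, was at 11.81 ± 0.39 and BEX2 at 11.88 ± 0.45.

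FSHR, the FSH receptor, read 10.01, 10.42, 10.84 and 10.13 in pools 1 to 4 (10.35 ± 0.37, percentile 79.8). CYP19A1, the aromatase that makes oestrogens, was at 9.66 ± 0.23 (percentile 72.1). Other CYP19A1 probes read 8.23, above in 3 pools, and 8.04. The markers with low signal were NR5A1 (8.75 ± 0.11), KITLG (8.73 ± 0.17), FOXL2 (8.32 ± 0.15), NPR2 (8.30 ± 0.12) and the glutamine carrier SLC38A3 (8.25 ± 0.16), each with a single probe. The 1 marker that was not above in every pool was AMHR2, the AMH receptor, with 8.59, 7.75, 9.27 and 9.31, at the floor in pool 2.

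**Figure D3:**
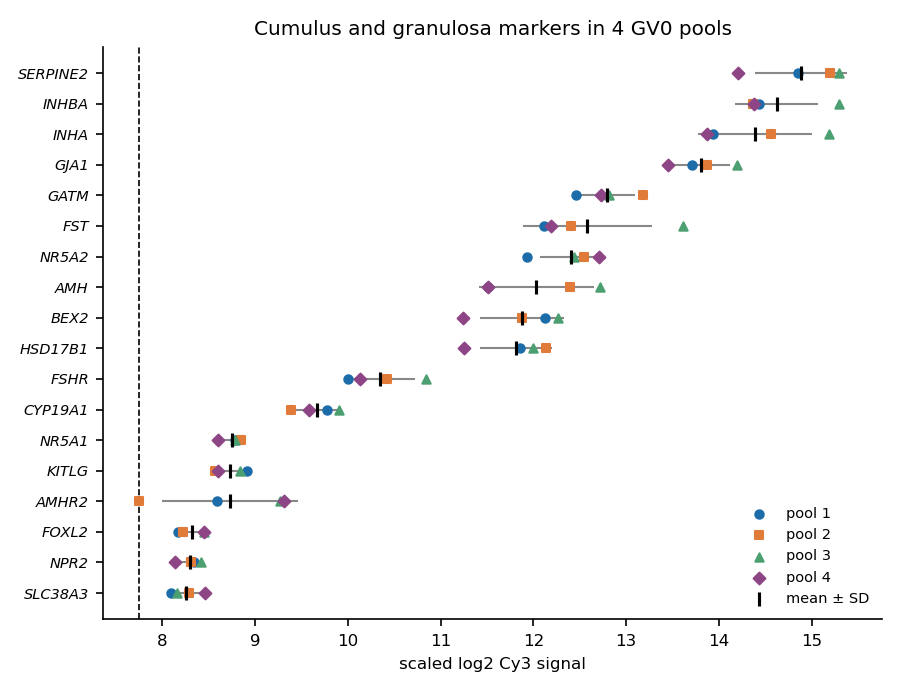
Scaled log2 Cy3 signal of 18 cumulus and granulosa markers in each of the 4 GV0 pools (coloured symbols), with the mean (black tick) and SD (grey line). The dashed line is the negative control level of 7.75, and markers range from SERPINE2 at 14.88 to SLC38A3 at 8.25.

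The inhibin, follistatin and AMH group had 7 of 7 genes above the controls in all pools, with a median percentile of 94.2. The activin-binding proteins FSTL3 and FST were at 12.68 ± 0.63 and 12.58 ± 0.70. INHBB, the beta B subunit, read 10.76, 10.76, 12.37 and 10.67, and FST read 12.12, 12.40, 13.61 and 12.19, so that pool 3 stood above the other 3 pools in both. TGFBR3, the inhibin co-receptor, was the dimmest at 10.06 ± 0.45. Of the 7 genes, 5 had an SD between pools above 0.53, the value that 10% of the genes above the controls exceeded, and 3 of 7 did so after quantile normalisation of the 12 channels. Pool 3 was the highest in 470 of all 1138 genes with an SD above 0.53.

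Receptors and transcription factors of granulosa cells gave lower signals than the inhibin group. Of 15, 10 (66.7%) were above the controls in all 4 pools, beside 74.8% of all named genes, with a median percentile of 57.9. The zinc finger factor GATA4 was the brightest at 13.78 ± 0.56. LHCGR, the receptor of luteinising hormone, read 7.83, 7.75, 7.75 and 7.80 and was above in no pool, and PRLR, the prolactin receptor, lay at the floor in all pools. In the response to oocyte factors, 18 of 23 genes were above (median percentile 55.1). The target genes ID3 and ID2 were at 13.43 ± 0.25 and 12.23 ± 0.37, the signal transducer SMAD2 at 12.59 ± 0.35, and TGFBR1 and SMAD5 were above in no pool on their probes. A second SMAD2 probe read 8.26, and other ID3 probes read 8.40 to 9.50.

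Steroid synthesis had 18 of 19 genes above the controls in all pools (median percentile 72.1). The electron carriers CYB5A and FDX1 were at 12.90 ± 0.42 and 10.57 ± 0.32. Other CYB5A probes read 8.22 and 7.94, the last above in 3 pools. CYP11A1, which cleaves the cholesterol side chain, read 10.54, 10.70, 11.39 and 9.65 and ranked among the 3 brightest markers of mural or luteinising granulosa cells, with FDX1 and HSD3B1 (10.18 ± 0.59). The lowest of the steroid genes were HSD11B2 at 8.10 ± 0.06 and the oestrogen sulphotransferase SULT1E1 at 7.86 ± 0.10, above in no pool.

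Genes of cumulus expansion lay near the middle of the array as a group, with a median percentile of 54.2 and none in the brightest 10%. Of 17, 13 (76.5%) were above the controls in all pools, beside 74.8% of all named genes. At least 2-fold above the control level were 47.1% of them, beside 41.7% of all named genes. The brightest were the EGF-like ligand BTC at 11.20 ± 0.51, the syndecan SDC4 at 10.64 ± 0.97 and the protease ADAMTS1 at 10.30 ± 0.37. Other BTC probes read 8.80 and 8.50. TNFAIP6, which links hyaluronan to heavy chains, was at 7.99 ± 0.16 and the EGF-like ligand AREG at 8.00 ± 0.07, each above in 2 pools. HAS2, which makes hyaluronan, and PTGS2, which makes prostaglandin precursors, were looked up after their values were seen. HAS2 read 8.83, 8.48, 7.93 and 7.87, and PTGS2 read 7.89, 7.93, 8.21 and 8.02, each above in 2 pools.

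The pathway that holds the oocyte in meiotic arrest through cyclic GMP had 12 of 15 genes above in all pools and a median percentile of 45.1. IMPDH1 and IMPDH2, the enzymes that feed GMP synthesis, were at 12.10 ± 0.50 and 10.44 ± 0.37, and the guanylate cyclase subunit GUCY1B1 was at 10.59 ± 0.43. The natriuretic peptide gene NPPC, which mural cells express, lay at 8.09 ± 0.04. Cell contacts held bright members, with CTNNA1 at 14.20 ± 0.33 and CTNNB1 at 13.60 ± 0.42 beside GJA1, and 19 of 22 above. CDH1, the epithelial cadherin, and OCLN, a tight junction protein, were above in no pool. In the extracellular matrix list 24 of 35 genes were above (median percentile 54.7), led by SERPINE2, the basement membrane proteoglycan HSPG2 at 13.39 ± 0.75 and the laminin LAMA1 at 12.62 ± 0.58. SPP1 was above in no pool.

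Early-response transcription factors were bright. Of 28 immediate early and stress genes, 26 were above the controls in all pools and 13 lay in the brightest 10%, with a median percentile of 87.6. The growth-arrest gene BTG2 was at 15.02 ± 0.28, the orphan receptor NR4A1 at 15.01 ± 0.21 and FOS at 14.76 ± 0.39. FOS read 14.38, 14.49, 15.23 and 14.93 in pools 1 to 4. NR4A3 and EGR3, of the same families as NR4A1 and EGR1, were above in no pool. Heat shock and folding genes had 22 of 22 above (median percentile 90.7), with PDIA6 at 15.03 ± 0.29, HSPA5 at 14.84 ± 0.36 and HSP90AA1 at 14.84 ± 0.31, and the small heat shock protein CRYAB lowest at 8.17 ± 0.18. The labels put the separation of the cells by vortexing, washing and centrifugation before freezing, and the part of these steps in the signals was not tested.

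Cell cycle genes were above the controls for 40 of 41 members, with a median percentile of 81.2. CCND2, the D-type cyclin of granulosa cells, was at 14.27 ± 0.33 and the replication clamp PCNA at 14.09 ± 0.24, whereas CCND1 lay at 7.92 ± 0.02 and was above in 1 pool. BUB1, a checkpoint kinase, was at 12.91 ± 0.34. The cytoskeleton list had 29 of 29 above (median percentile 92.4), and besides TUBA1A its brightest members were the intermediate filament VIM at 15.01 ± 0.22 and ACTG1 at 14.96 ± 0.34. In the Notch, Wnt and hedgehog list 17 of 23 genes were above, with a median percentile of 48.2. IHH, the ligand Indian hedgehog, read 14.81, 14.45, 15.31 and 14.59 and lay at percentile 99.2 on its single probe.

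Insulin-like growth factor genes were low in signal rank, with a median percentile of 30.6. Of 15, 11 (73.3%) were above the controls, close to the 74.8% of all named genes. The stanniocalcin STC1, which blocks the protease that frees these factors, was the brightest at 11.00 ± 0.75, and IGFBP1 was above in no pool. Amino acid carriers had 14 of 17 above (median percentile 51.0). SLC38A2 was at 13.70 ± 0.38 in the lead, SLC7A5 read 12.62, 13.34, 11.90 and 10.10, and SLC7A8 was above in no pool. Other SLC38A2 probes read 8.26 and 8.03, each above in 3 pools. In the apoptosis list 16 of 20 were above (median percentile 63.9), from the death receptor FAS at 14.32 ± 0.26 and cytochrome c, CYCS, at 13.57 ± 0.50 to CASP8 at 7.79 ± 0.08.

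Markers of leukocytes, red cells and endothelium gave mostly signals near the negative controls. Those of mural or luteinising granulosa cells did not, with 8 of 11 above in all pools and a median percentile of 53.5. Of these 11, 5 (45.5%) were 2-fold above the control level, beside 41.7% of all named genes. Leukocyte markers had 5 of 17 above in all pools (median percentile 17.3), and ITGB2, the beta-2 integrin chain of leukocytes, and CSF1R, a receptor of macrophages, lay at the floor. PTPRC, the pan-leukocyte phosphatase, was the exception with 9.25, 11.79, 10.57 and 12.45 in pools 1 to 4 on 1 probe. Its second probe lay at the floor in all pools and was above in none. Red cell markers had 5 of 10 above (median percentile 23.8), with the alpha globin HBA at 8.92 ± 0.52 the brightest. Endothelial markers had 10 of 15 above (median percentile 33.1). PECAM1 and FLT1 were above in no pool, and only EGFL7, at 8.81 ± 0.11, was 2-fold above the control level.

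Theca and stroma markers had 11 of 16 above the controls in all pools (median percentile 42.9), and 5 of the 16 were 2-fold above the control level. The contractile actin ACTA2 read 13.33, 13.54, 13.64 and 12.96, the proteoglycan LUM was at 10.39 ± 0.46 and the smooth muscle myosin MYH11 at 10.24 ± 1.02, whereas COL3A1 and OGN were above in 2 pools each. CYP17A1 and INSL3, which define steroid-making theca cells, read 8.15 ± 0.07 and 8.42 ± 0.08, below the 2-fold line. Oocyte markers had 16 of 26 above (median percentile 25.2), and 4 of the 26 were 2-fold above the control level. Of GDF9 and ZP4, which are made by the oocyte, GDF9 lay at the floor in all pools and ZP4 at or near it. Neither was above the controls in any pool. The bright members were RNF114 at 12.53 ± 0.49, UCHL1 at 11.45 ± 0.89 and MOS at 9.53 ± 0.19, each on its brightest probe. The other RNF114 probes read 8.31, 8.26 and 8.04, and those of UCHL1 10.52 and 8.52. The other MOS probes read 8.74, 8.14 and 7.75, the last above in no pool. Whether material from other cells contributed to these values was not tested.

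**Figure D4:**
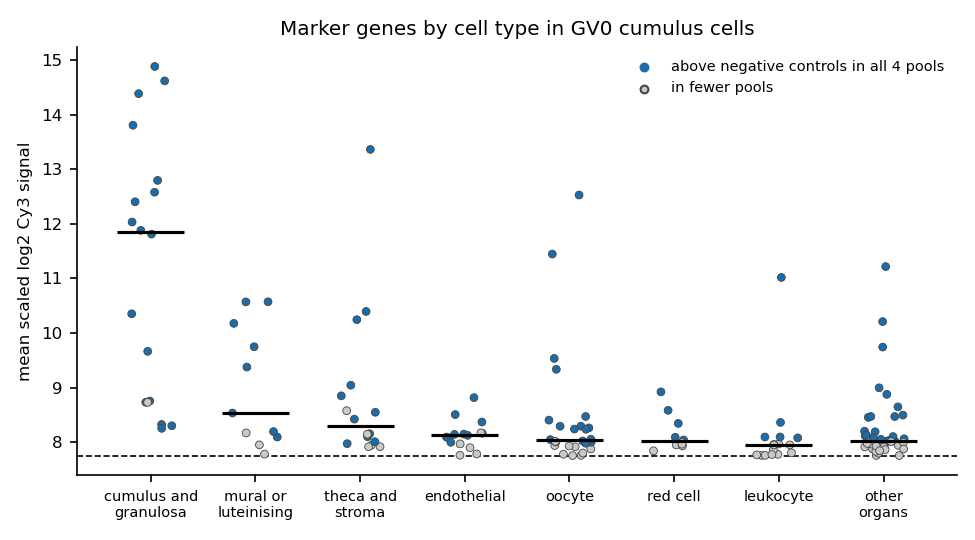
Mean scaled log2 Cy3 signal over 4 GV0 pools of each marker gene (points) by the cell type it marks, with the list median (black bar) and the negative control level of 7.75 (dashed line). Blue points were above the negative controls in all 4 pools, 17 of 18 for cumulus and granulosa and 5 of 17 for leukocytes.

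Genes known from other organs give a scale for the detection call. Of 41 such genes, 21 (51.2%) were above the negative controls in all pools, and 5 (12.2%) were 2-fold above their level, against 74.8% and 41.7% of all named genes. The brightest were the plasma proteins APOH (11.22 ± 0.54) and FGB (10.21 ± 0.31) and the pituitary prohormone POMC (9.74 ± 0.41), and insulin, INS, and the milk protein LALBA lay at the floor. A second APOH probe read 7.80 and was above in no pool, and the 3 other FGB probes read 8.16, 7.76 and 7.75, the last 2 above in no pool. Being above the controls is therefore a weak criterion at low signal, and the part of cross-hybridisation in these signals was not tested.

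Several families were close to the floor as a whole. HOX genes had 9 of 24 above in all pools and a median percentile of 12.6. The brightest signals were those of HOXC4 at 12.66 ± 0.92, HOXB9 at 9.80 ± 0.32 and HOXB2 at 9.46 ± 0.28. HOXC4 read 11.33, 13.08, 12.81 and 13.42 on its single probe and belongs to a set of genes with a shared pool order described with the differences between pools. Interleukins had 11 of 31 above (median percentile 16.1). Their brightest member was IL33, the alarmin, at 11.18 ± 0.50 on 1 of 3 probes, the other 2 reading 8.01 and 7.99. Potassium channel genes had 43 of 83 above, with the accessory subunit KCNE5 at 14.26 ± 0.62 and the next, KCNJ8, at 10.41 ± 0.56. Keratins had 25 of 41 above (median percentile 27.0), headed by KRT8, a keratin of simple epithelia, at 14.43 ± 0.80 and KRT2 at 13.82 ± 0.92. Solute carriers and zinc finger genes, 315 and 230 members, lay near the middle of the array with median percentiles of 45.9 and 48.0. Collagens also lay near the middle, with 29 of 40 above (72.5%, beside 74.8% of all named genes) and a median percentile of 46.6. Cytochrome P450 genes had 21 of 34 above (61.8%) and a median percentile of 33.5.

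The 4 pools were similar in rank and differed in detail. Pairs of pools correlated over probes with r between 0.953 and 0.975, a description over probes that share arrays and RNA. Among genes above the controls the median SD between pools was 0.23, and 140 genes had an SD above 1. In a limma F-test with the slide as a block, 23678 of 35961 probes (65.8%) differed between pools at an adjusted p under 0.05. That test sets the pools against repeated hybridisations of the same RNA, with a median SD between slides of 0.07 against 0.17 between pools over probes. Pool 4 was dimmer at the bright end. The median of the brightest 10% of genes was 12.65, 12.93, 13.04 and 12.55 in pools 1 to 4, while that of all genes above the controls was 8.92, 9.04, 9.11 and 8.83.

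By the SD between pools, 1138 of the 11380 genes above the controls (10%, as the 90th percentile fixes) were set apart as varying, and 927 of them were also among the most variable 10% after quantile normalisation. Sterol synthesis had 10 of 20 varying members, and 11 of 20 after quantile normalisation. Its median signal was 12.01, 11.53, 11.25 and 10.29 in pools 1 to 4, and all 20 genes were above the controls. SREBF2, the factor that switches the pathway on, read 13.43, 14.12, 14.41 and 14.14. CYP51A1, the lanosterol demethylase, read 14.28, 14.50, 13.53 and 12.41, and the farnesyl synthase FDPS read 13.08, 13.15, 13.15 and 12.43. Both enzymes were dimmest in pool 4, as were 495 of the 1138 varying genes, while 517 were dimmest in pool 1. The brightest SREBF2 probe was dimmest in pool 1, but a second SREBF2 probe read 12.73, 13.55, 13.35 and 12.12 and was dimmest in pool 4, so its probes disagreed. The isomerase IDI1 and the regulator INSIG1, looked up after their values were seen, read 13.00, 12.66, 11.89 and 10.99, and 12.30, 11.29, 11.23 and 10.23. The dimmest members were LSS at 8.87 ± 0.69 and PMVK at 8.38 ± 0.13.

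Of the other lists, immediate early and stress genes had 9 varying members of 26 above the controls, heat shock and folding genes 8 of 22, and extracellular matrix genes 8 of 24. Glycolysis had 7 of 22, and 4 of 22 after quantile normalisation. Cytosolic ribosomal proteins had 1 of 68, many of them near the inferred scanner ceiling, complex I had 0 of 37 and complexes III to V had 0 of 37.

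The 12 genes with the largest SD between pools were TRIB1, FOSL1, BOLA-DQB, TNFRSF12A, SRXN1, SLC1A4, LRRN3, VNN2, AXL, HAO2, ATP2B3 and HK3, of which 9 stayed among the 12 after quantile normalisation. TRIB1, a pseudokinase, read 12.28, 13.15, 9.03 and 9.57 in pools 1 to 4. FOSL1, a FOS-family factor, read 12.44, 12.70, 10.16 and 8.83. SRXN1, which repairs oxidised peroxiredoxins, read 12.29, 13.19, 10.00 and 9.56. These 3 were high in pools 1 and 2 and low in pools 3 and 4, without overlap, as were TNFRSF12A (10.86, 12.26, 8.97 and 8.33), LRRN3 (11.76, 10.85, 8.88 and 8.27) and the amino acid carrier SLC1A4 (10.90, 12.93, 9.64 and 9.02). Pools 1 and 2 were the highest 2 in 213 of the 1138 varying genes, pools 2 and 3 in 354 and pools 2 and 4 in 278. The genes named here were picked by their SD over the same pools. Of the 2 other SLC1A4 probes, 1 read 9.52, 10.65, 8.33 and 8.53, also higher in pools 1 and 2, and the other, near the floor, read 7.95, 8.11, 8.02 and 7.98 and was lowest in pool 1. The 2 other TRIB1 probes lay near the floor at 8.13 ± 0.44 and 7.96 ± 0.07, each above in 2 pools. BOLA-DQB, a polymorphic class II histocompatibility gene, read 10.98, 8.37, 12.69 and 10.07.

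HAO2, ATP2B3 and HK3 followed another order, highest in pool 4, then pools 2, 3 and 1. HAO2, a peroxisomal oxidase, read 10.01, 12.53, 11.04 and 13.18, and its 2 other probes read 8.17 ± 0.05 and 8.12 ± 0.09. HK3, a hexokinase, read 9.92, 12.26, 10.70 and 13.05. This order was the most frequent among the varying genes, with 238 of 1138, and was noticed after the data were seen. Its genes include PTPRC, the fatty acid binding protein FABP1 of liver, the lens crystallin CRYBB1, HOXC4, NOTCH1 and JAG2. Their median signal was 9.65, 11.45, 10.47 and 11.98 in pools 1 to 4.

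The 238 genes had 186 other probes, of which 12 showed that order. These other probes were dim, with a median signal of 8.22, and 110 of 186 were above the controls in all pools. Their median deviations from their own means lay between -0.02 and 0.01 in the 4 pools, against -1.03 to 1.02 for the brightest probes. An SD past the threshold was found in 11 of the 186, beside 65 of 609 other probes of the 900 remaining varying genes, which followed other orders. In the Cy5 channel, which held RNA of other stages, the same 238 probes read medians of 9.82, 10.51, 9.97 and 11.22 in areas 1 to 4 for GV1. For GV2 the medians were 8.66, 11.03, 9.55 and 12.25, and for GV3 10.21, 10.55, 9.40 and 11.23. Area 4 was the highest and area 2 the next in all 3 stages. The cause of the shared order was not tested, and the levels of these genes, PTPRC included, are reported with that limit.

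**Figure D5:**
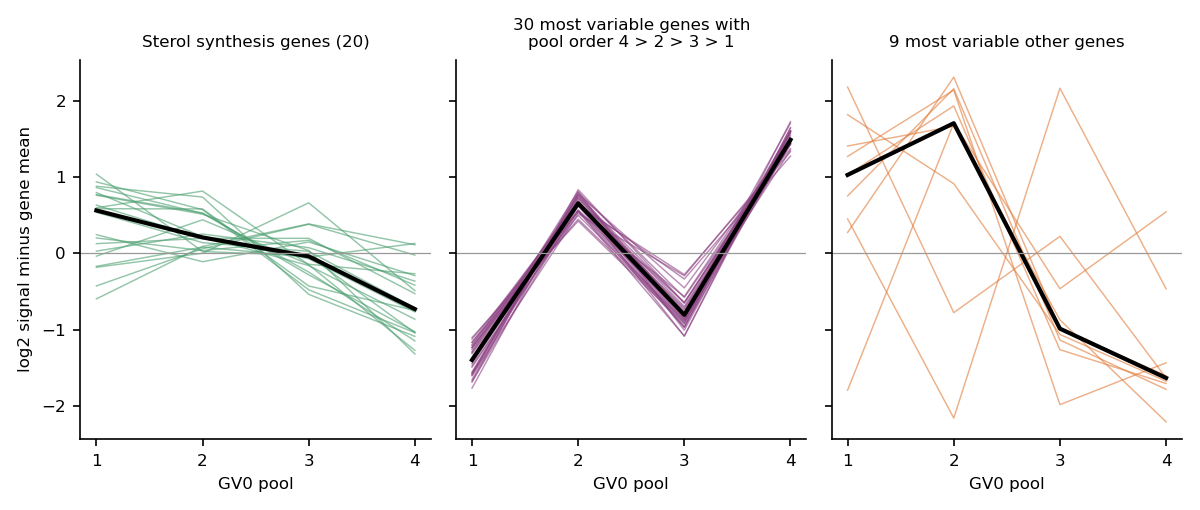
Signal in each GV0 pool minus the gene's mean over pools (log2 units), for 20 sterol synthesis genes, the 30 most variable genes with the order pool 4 > 2 > 3 > 1, and the 9 others among the 12 most variable. Thin lines join the values of a gene, the thick line is the median, and pools have no order in themselves. The sterol synthesis median is lowest in pool 4, with some genes against it, and the middle genes share their order because it chose them.

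The GV0 profile was set against the mean of the later stages on the same arrays, to see which of the described genes differed. In limma on 4 values per probe, 674 of 36005 probes (1.87%) were higher in GV0 and 464 (1.29%) lower at an adjusted p under 0.05. For named genes these were 233 (1.74%) and 148 (1.1%) of 13417. GV0 RNA was in Cy3 on every array, so that stage and dye cannot be told apart. In limma 0 probes passed after any of the 4 areas was left out, with 7459 to 9321 at an unadjusted p under 0.05, and 0 passed with the deposited log2 ratios, with 6859 at that unadjusted p. The calls below therefore rest on all 4 areas and on the processing.

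Immediate early and stress genes had 7 of 26 members higher in GV0 and 0 lower, beside the 1.74% of all genes. The lists were chosen with earlier results of these data known, so list shares and list medians here are description and not a test of enrichment. EGR1, a zinc finger factor, was lower in the later stages by a log2 ratio of -2.09, -2.64, -1.62 and -2.65 in areas 1 to 4 (mean -2.25, SE 0.20, limma adjusted p = 0.039, range over alternatives 3.86e-05 to 0.161). DUSP1, a phosphatase of MAP kinases, had a mean log2 ratio of -1.58 (SE 0.20, limma adjusted p = 0.046), and the others were GADD45B, FOSB, FOS, GADD45G and IER2, between -1.30 and -0.81. The list median over 26 genes was -0.57, against -0.0039 over all named genes.

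GATM was the 1 cumulus marker of 18 that passed, with later-over-GV0 log2 ratios of -2.18, -1.89, -1.25 and -2.14 in areas 1 to 4 (mean -1.87, SE 0.18, limma adjusted p = 0.039). The thioredoxin inhibitor TXNIP was also higher in GV0, with a mean log2 ratio of -1.77 (SE 0.22, limma adjusted p = 0.046), among 4 of 30 antioxidant genes. TXNIP was read on its brightest probe, at 12.61 in GV0, and its other probes read 8.79, 8.06 and 8.01 there. The cell cycle list had 3 of 40 higher in GV0, including the mitotic kinase AURKB (-0.75) and the anaphase activator CDC20 (-0.73). MOS, the nuclear receptor NR0B1 (-0.94) and the mitochondrial ribosomal protein MRPS11 (-1.03) were higher in GV0 as well. PDGFRA, a growth factor receptor, was lower in GV0, with log2 ratios of 0.83, 1.79, 2.00 and 1.43 (mean 1.51, SE 0.21, limma adjusted p = 0.048). That call rests on its brightest probe, at 9.04 in GV0. Its other probes read 8.03 and 7.75 there, the last above in no pool. FDX1 was lower in GV0 by a log2 ratio of 0.54 (SE 0.07, limma adjusted p = 0.047). The median log2 ratio was -0.02 for the 69 ribosomal proteins, whose Cy3 signals lay near the ceiling, -0.07 for sterol synthesis, -0.03 for glycolysis, 0.09 for heat shock and folding genes and 0.27 for the inhibin group. Larger list medians were -0.35 for the cell cycle and 0.51 for the 10 tested markers of mural or luteinising granulosa cells, of which FDX1 passed. In the latter list CYP11A1 had a mean log2 ratio of 1.05 (SE 0.36, limma adjusted p = 0.148), and LHCGR, above in no GV0 pool, was not tested. The part of mural cells in the values of GATM, FDX1 and the cell cycle genes was not tested.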

How the data were processed

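RNA of 24 channels on 12 arrays was measured. The scanner tables deposited by the authors hold mean and median pixel intensity and local background intensity of each spot, not normalised, per the file headers. They also hold a flag of another kind, 0 or 1, whose rule is not given in the sources used here. The deposited series matrix holds log2 ratios of unstated processing, used as an alternative only. The analysis took mean minus background Cy3 intensity of unflagged spots (8 to 99 probe spots flagged per array), scaled each array to 1 median, set a floor at the negative control median, took log2, and averaged slides within areas, then areas. The number of arrays limits the precision. Between GV0 pools limma 3.58.1 (R 4.3.3) fitted area with slide as a block. Later stages over GV0 used normexp (offset 50), loess and 1 mean ratio per area. Both were tested on simulated data, with Benjamini-Hochberg adjustment over all probes kept. Area numbers pair arrays through the shared GV0 pool, seen from the Cy3 correlations, not from the labels.

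Of 43794 probes 21790 carry 1 gene symbol, 22004 none and none carries several. Of 15229 symbols, 14114 were current in the RefSeq table (ARS-UCD2.0), 982 were renamed and 133 unmatched. Members and lists were chosen with earlier results of these data known. Named genes are the 25 brightest, in each list or family the 3 brightest and 2 dimmest and all cumulus markers, the 12 most variable, and up to 2 changed members per list and direction against later stages; others were chosen after their values were seen. Alternatives changed the threshold, spot statistic, background, scaling, probe rule, filter and replicates. No sequences were used.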

Additional observations from a re-analysis of the deposited data

Results flagged for a closer look

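In a group of 4 pools, 1 pool stood apart where its gap to the nearest other pool, as a part of the whole range, passed Dixon's 95% critical value. Chance gives about 1 in 20 such cases, and 15 of 296 named genes (5.07%) and 618 of all 11380 genes above the controls (5.43%) met it, so their number is near what chance gives. The 296 include genes not above the controls in all pools, so these shares come from unlike sets. Pool 3 stood above the rest for INHBA (gap over range 0.929), INHBB (0.946), IGF2R (0.927), with 10.43 against 8.31 to 8.46, and the class II invariant chain CD74 (0.852). Pool 1 stood below the rest for HSPG2 (0.902), for the basement membrane collagen COL4A5 (0.862), with 9.33 against 10.93 to 11.19, and for IMPDH1 (0.885). Pool 4 stood below the rest for FDPS (0.903) and the proteasome subunit PSMD3 (0.831). In 6 genes the range over pools was at most 0.33 log2 units, namely AREG (0.95), BAD (0.895), ELN (0.92), GUCY1A1 (0.868), MRPS12 (0.836) and PSMB8 (0.854). BAD and GUCY1A1 were each above the controls in 1 pool only, with the other pools at or near the floor, which narrows the spread among those pools.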

How the results depend on the processing

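Genes above the controls in all 4 pools numbered 11380, and 6348 with the added 2-fold criterion. Genes above in no pool numbered 1618, 2466 with a threshold of 3 SD and 2921 with the highest negative control spot, which also left 16919 of 28136 probes above in all pools. The 11380 genes became 7919 with the highest negative control spot, 8948 with the median pixel intensity and 11508 to 11693 without 1 pool. The median pixel intensity also moved the percentage of members above by over 10 points in 24 of 47 lists. Of the 25 brightest genes, 19 to 25 stayed among the 25 under the alternatives, and of the top 1522 genes 1471 to 1522 stayed, or 1097 with the median over a gene's probes. That probe rule moved the median percentile of 30 of 47 lists by more than the spread between pools, sterol synthesis from 87.1 to 77.9 for example, and using only genes with 1 probe moved 36 of 47. Probes differing between pools numbered 23678, and 18585 to 32996 under the alternatives. For GV0 against later stages the count of 1138 probes became 19988 with the area as a replicate block, which takes the 3 stages as separate values of each paired GV0 pool, 99 with median spot signals, 506 without background correction, 2577 over all probes and 0 with the series matrix values (6859 at an unadjusted p under 0.05 in limma). Leaving out 1 area gave 0 to 0, with 7459 to 9321 at an unadjusted p under 0.05 in limma. All 37 list members called remained called over all probes and with the replicate block, which called 19988 of 35778 probes. With median spot signals 8 of the 37 remained, and without background correction 14. With the series matrix values, or with any 1 area left out, 0 of the 37 remained. Directions of the 37 did not reverse in any of the 9 alternatives. Causes were not tested. Calls within 2-fold of the negative controls depend on the threshold and spot statistic as given, and signals at the inferred scanner ceiling are given no order.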
